A study of Mus musculus with 6 samples.

Results

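Of the 55341 genes in the count tables, 39 form the set described here, and all 39 were found in the tables. They were listed by name as genes for scaffold, adhesion and signalling proteins of the receiving side of the synapse. The set and the gene lists beside it were chosen with earlier results of these data known. Their shares beside those of all genes are therefore descriptions and not tests. The libraries hold RNA of cultured mouse cerebellar granule neurons (CGNs), 3 treated with the solvent DMSO and 3 with GSK-126, which blocks EZH2, the PRC2 enzyme that places H3K27me3. In the study's methods, the CGNs came from cerebella of CD1-IGS mice at P6-P8, one replicate is the cells of pooled litters, and all cultures received cytosine arabinoside at DIV2 against dividing cells. The labels name cerebellum and DIV3, and the methods place the addition at DIV3 and the harvest at DIV5. The dose given at DIV3 is not given in the sources used here.

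An excitatory synapse holds its glutamate receptors in a dense plate of scaffold proteins. MAGUK proteins of the PSD-95 family bind receptor tails, GKAP proteins link them to SHANK proteins, and HOMER proteins join SHANK to metabotropic receptors and calcium stores. Neuroligins, LRRTM and LRFN proteins reach across the cleft to presynaptic partners, gephyrin does the scaffolding at inhibitory synapses, and calcium entry is read out by the kinases CaMKII and CaMKIV and by the phosphatase calcineurin. CGNs assemble such synapses with mossy fibers as they mature.

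In the fit that compares libraries with the same replicate number, 15 of the 38 members tested fell with GSK-126 and 1, Homer2, rose, while 22 did not pass the threshold. In the fit that ignores the number, 0 passed. The scaffold genes that fell were Dlg3, Dlg4, Dlgap1, Dlgap3, Shank1, Gphn and Cnksr2. The adhesion genes were Nlgn1 and Lrrtm3, and the calcium signalling genes Camk2b, Camk4 and Ppp3ca. The GTPase regulators Iqsec1 and Iqsec2 and the kainate receptor auxiliary subunit gene Neto2 fell as well. Among all 16729 genes tested, 5.09% were called lower and 3.35% higher in this fit (edgeR with the replicate block, Benjamini-Hochberg adjusted p under 0.05), and 39.5% of the members tested were lower. Because the members were chosen with earlier results known, this contrast is a description and was not tested. The median log2 fold change of the members was -0.21 with the block (quartiles -0.42 and -0.079; -0.22 without the block and -0.071 when DMSO replicate 2 was left out of that fit), beside -0.0056 for all genes tested, and 34 of 38 were below 0, beside 50.9% of all genes (34 of 38 and 51.2% without the block).

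Without the replicate number in the fit, 0 members passed in either direction (edgeR's quasi-likelihood test), as did 0 of all genes. At an unadjusted p under 0.05, 7 members were lower and 0 higher, where 2.21% and 1.77% of all genes were, and DESeq2 without the block called 0 members, with 19 genes higher and 2 lower among all. The replicate numbers are given by the labels and libraries with the same number deviated together, so values are given for replicates 1, 2 and 3 in this order, and calls are those of the fit with the block. All 15 members called lower were lower in each of the 3 pairs, as were 23 of the 38 tested and 22.8% of all genes, and Homer2 alone was higher in each pair, as were 19.5% of all genes. The fit with the block rests on these same pair differences, so the shared sign is not separate evidence for the calls. The groups themselves did not overlap for 2 of the 38 members tested (5.26%), Ppp3ca and Iqsec1, both called lower. This share was close to the 4.72% of all genes that were lower without overlap. Counts scaled by library totals instead of TMM gave 13 members called lower and 1 higher, beside 4.23% and 4.27% of all genes, and changed the split of all calls from 39.7% higher to 50.2% higher.

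**Figure D1:**
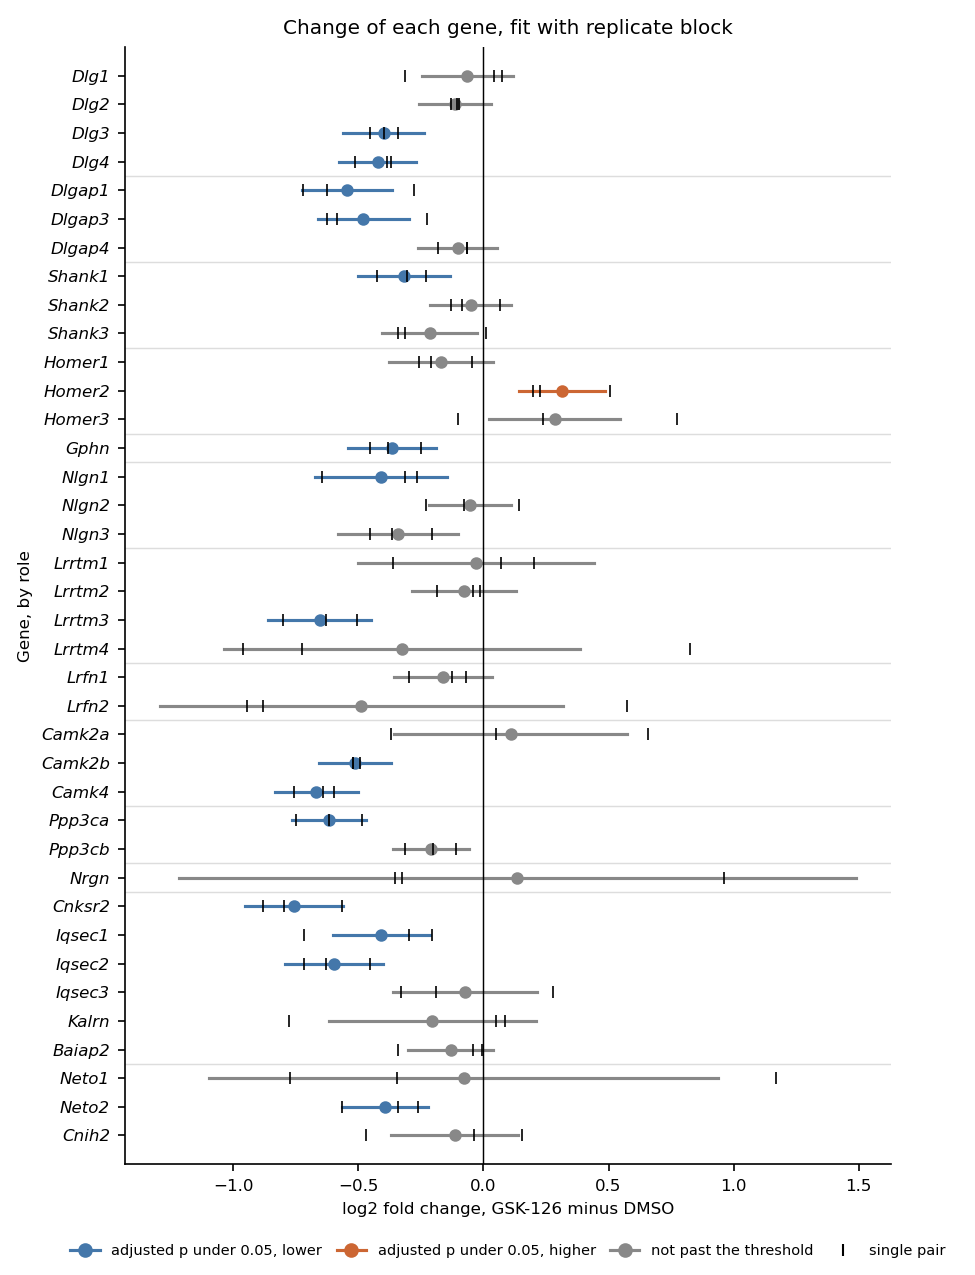
Log2 fold change (GSK-126 minus DMSO, horizontal axis) of the 38 members tested, ordered by role (vertical axis). Points and bars give the estimate of the fit with the replicate block and its 95% interval, black ticks the 3 pairs of libraries, blue the 15 members called lower, orange Homer2, and grey the 22 that did not pass.

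Counts on genes ranged from 7407189 to 13092763 per library. Markers of granule neurons (8 genes such as Neurod1, Pax6 and Zic1) summed to between 4089 and 7810 CPM. The cultures also held astroglia markers (8 genes, 2345 to 7778 CPM) and vascular and fibroblast markers (7 genes, 4776 to 7500 CPM). Oligodendrocyte lineage markers (8 genes) summed to 433 to 762 CPM. Microglia markers (8 genes) reached 188 to 502 CPM and dividing cell markers (7 genes) 225 to 367 CPM. Single genes of these lists were near absent, as Cldn5 and Atoh1 stayed under 1 CPM in every library and Trem2 was listed at 0. Ezh2 transcripts were at 36.5 ± 6.97 CPM in DMSO and 33.6 ± 7.82 CPM under GSK-126 (SD, n = 3 per group), which checks neither the dose nor the activity of the enzyme.

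The levels of the members spanned a wide range. Per kb of exon, Ppp3ca, which encodes the main catalytic subunit of calcineurin, stood highest with DMSO at 89.95 ± 25.7 CPM per kb (SD, n = 3), followed by Camk4 (43.8 ± 15.3), Camk2b (43.1 ± 13.0) and Nlgn2 (40.5 ± 0.772). The lowest DMSO library of Ppp3ca lay above the highest of Camk4. Of the 38 pairs of neighbours in the order, 33 overlapped, and the gaps besides that of Ppp3ca followed Shank1, Nlgn3, Iqsec3 and Kalrn. At the lower end were genes better known from the forebrain. Camk2a had 1.13 ± 0.27 CPM per kb and Nrgn, which encodes the calmodulin-binding protein neurogranin, 0.52 ± 0.388 (SD, n = 3 each), and Camk2b exceeded Camk2a by 40.8 ± 19.96 times per kb within the DMSO libraries. Dlgap2 had 1 to 8 counts per library and was not tested, and the other 38 members passed the filter on low counts.

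**Figure D2:**
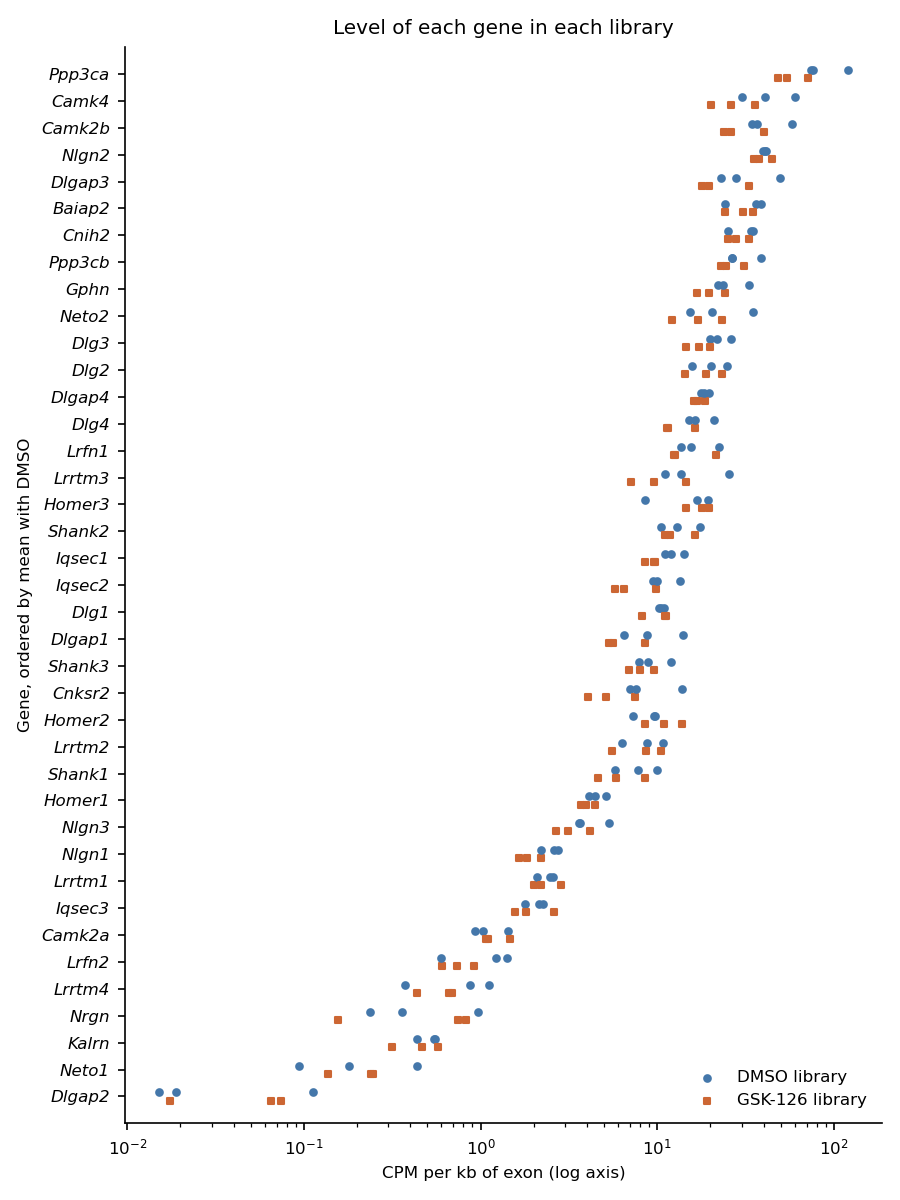
CPM per kb of exon (log axis) of the 39 genes in each DMSO library (blue circles) and each GSK-126 library (orange squares), ordered by the mean with DMSO. Ppp3ca stands apart at the top, and Camk2a, Nrgn, Kalrn, Neto1 and Dlgap2 lie at the bottom of the order with Lrfn2 and Lrrtm4.

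Of the 38 members tested, Ppp3ca had the smallest p and Camk4 the next. The libraries of Ppp3ca held 742, 1193 and 758 CPM in the DMSO libraries against 483, 710.0 and 541 CPM under GSK-126. Each GSK-126 library lay below each DMSO library, with replicate 2 the highest of both groups. Ppp3ca (ENSMUSG00000028161.17, GRCm38 chromosome 3, 136670124 to 136937727) fell by 0.62 on the log2 scale (standard error 0.071, 95% interval -0.77 to -0.47, edgeR with the replicate block, Benjamini-Hochberg adjusted p = 9.2e-06), or 34.9%. An exact permutation test of its 6 CPM values, two-sided and without pairing, gives 0.1, which is the smallest p that 3 against 3 libraries allow. Camk4, the gene of a nuclear kinase that acts on CREB and is abundant in granule neurons, had 99.0, 197 and 132 CPM in the DMSO libraries against 65.4, 116 and 84.8 CPM under GSK-126. Replicate 2 with GSK-126 lay above replicate 1 with DMSO, so the groups overlapped, but every pair fell, and the log2 fold change was -0.67 (95% interval -0.83 to -0.50, edgeR with the replicate block, Benjamini-Hochberg adjusted p = 1.5e-05). Camk2b, which encodes the beta subunit of CaMKII, had 313, 529 and 337 CPM in the DMSO libraries against 218, 368 and 239.5 CPM under GSK-126. Its decrease was nearly the same in the pairs, with log2 differences of -0.52, -0.52 and -0.49, and the fit gave -0.51 (95% interval -0.66 to -0.37, edgeR with the replicate block, Benjamini-Hochberg adjusted p = 5.9e-05).

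The sister genes did not pass. Ppp3cb, for the other widely expressed catalytic subunit of calcineurin, went from 269 ± 61.4 to 231 ± 37.2 CPM (SD, n = 3 each), with -0.21 (95% interval -0.36 to -0.058, edgeR with the replicate block, Benjamini-Hochberg adjusted p = 0.0847). Within each library, Ppp3ca per kb exceeded Ppp3cb per kb by 2.80, 3.10 and 2.86 times with DMSO and by 2.10, 2.29 and 2.20 times with GSK-126, values that do not overlap. Non-overlap was not particular to this pair of genes. The ratios of Iqsec2 to Iqsec3, Lrrtm3 to Lrrtm2 and Shank1 to Shank2 did not overlap between the treatments either. Those of Camk2b to Camk2a, Nlgn2 to Nlgn1, Homer2 to Homer1 and Dlg4 to Dlg1 did. These ratios were looked at after the fold changes were seen and are given without a test. For Camk2a the estimate was 0.11 (95% interval -0.36 to 0.57), at 8.45 ± 2.01 CPM in DMSO and 9.09 ± 1.65 CPM under GSK-126 (SD, n = 3 each) and 60 to 109 counts per library, so a change of either sign within this interval was not detectable at this depth. Nrgn had 3 to 15 counts per library. It was at 0.346, 1.4 and 0.521 CPM in the DMSO libraries against 0.227, 1.08 and 1.2 CPM under GSK-126, too few reads for a comparison.

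**Figure D3:**
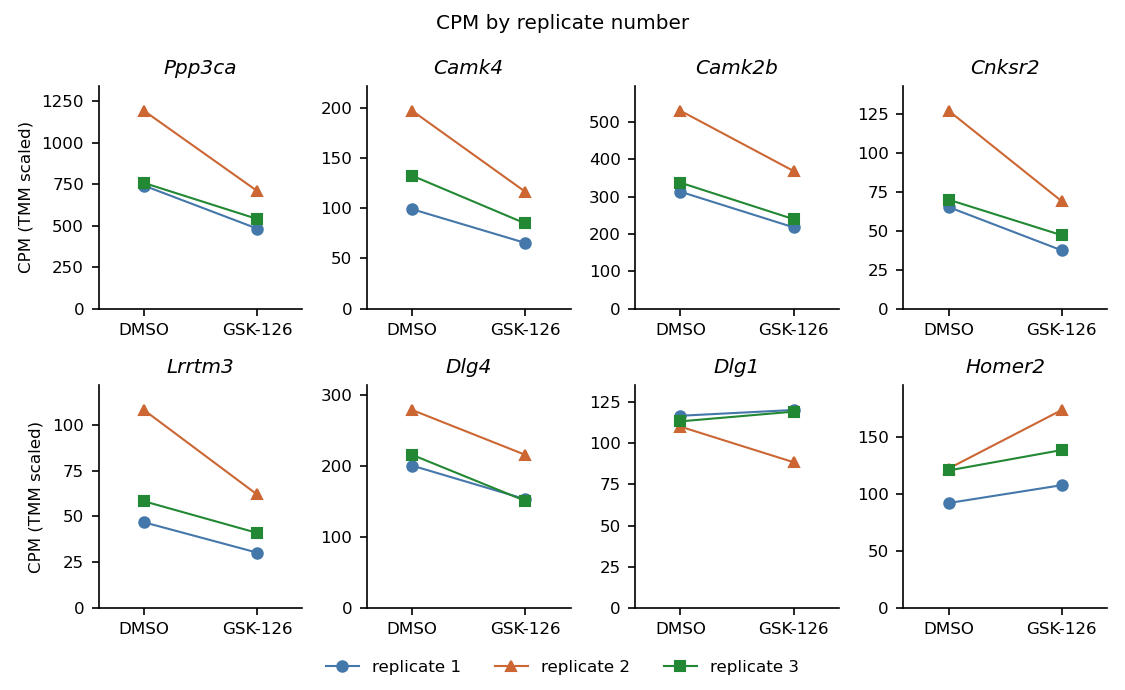
CPM (vertical axes, from 0) of 8 genes in each library, with lines joining the DMSO and GSK-126 library of the same replicate number. Ppp3ca, Camk4, Camk2b, Cnksr2, Lrrtm3 and Dlg4 fell in all 3 pairs, Homer2 rose in all 3, and Dlg1 moved in both directions.

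The MAGUK scaffolds split. Dlg4, which encodes PSD-95, had 201, 279 and 216 CPM in the DMSO libraries against 153, 216 and 151 CPM under GSK-126. All pairs fell and the groups overlapped through the replicate 2 libraries, with a log2 fold change of -0.42 (95% interval -0.58 to -0.27, edgeR with the replicate block, Benjamini-Hochberg adjusted p = 7.9e-04). Dlg3, which encodes SAP102, the family member typical of young synapses, had 116, 154 and 127 CPM in the DMSO libraries against 84.5, 117 and 100.2 CPM under GSK-126. Its change was -0.40 (95% interval -0.56 to -0.24, edgeR with the replicate block, Benjamini-Hochberg adjusted p = 0.00231), close to that of Dlg4. Dlg2, for PSD-93, was the family member with the highest CPM, between 232 and 406 in the 6 libraries, and changed by -0.11 (95% interval -0.26 to 0.032, edgeR with the replicate block, Benjamini-Hochberg adjusted p = 0.369). Per kb of exon it was not the highest, as Dlg3 was at 22.6 ± 3.33 and Dlg2 at 20.2 ± 4.65 CPM per kb with DMSO (SD, n = 3 each), with ranges that overlapped. Dlg1, for SAP97, stayed between 88.4 and 120.1 CPM, and changed by -0.064 (95% interval -0.25 to 0.12, edgeR with the replicate block, Benjamini-Hochberg adjusted p = 0.732), an interval that does not reach the estimate of Dlg4. The difference between family members was not tested.

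Of the GKAP genes, whose products sit between the MAGUK and SHANK layers, Dlgap1 and Dlgap3 fell. Dlgap1 had 116, 251 and 156 CPM in the DMSO libraries against 96.0, 152 and 101 CPM under GSK-126. Replicate 2 stood well above the others in both groups, and the change was -0.55 (95% interval -0.73 to -0.36, edgeR with the replicate block, Benjamini-Hochberg adjusted p = 3.4e-04). For Dlgap3 the libraries held 104, 224 and 126 CPM in the DMSO libraries against 88.8, 149 and 81.3 CPM under GSK-126. Its log2 fold change was -0.48 (95% interval -0.66 to -0.30, edgeR with the replicate block, Benjamini-Hochberg adjusted p = 0.00111). Dlgap4 lay between 137 and 165 CPM and changed by -0.10 (95% interval -0.26 to 0.053, edgeR with the replicate block, Benjamini-Hochberg adjusted p = 0.463).

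Of the SHANK genes, Shank1 alone passed, and weakly. The libraries held 60.4, 105 and 82.0 CPM in the DMSO libraries against 48.8, 89.9 and 61.0 CPM under GSK-126, and its change of -0.32 (95% interval -0.50 to -0.13, edgeR with the replicate block, Benjamini-Hochberg adjusted p = 0.0281) was no longer called when any one pair was left out (edgeR with the replicate block, Benjamini-Hochberg adjusted p = 0.143, 0.0561 and 0.176 without pairs 1, 2 and 3), nor by DESeq2 with the block (0.0988) or with total counts (0.0576). Shank3 was at 87.9 ± 19.5 and 75.2 ± 12.3 CPM (SD, n = 3 each) with -0.22 (95% interval -0.41 to -0.024, edgeR with the replicate block, Benjamini-Hochberg adjusted p = 0.169). Shank2, between 114 and 187 CPM, gave -0.051 (95% interval -0.21 to 0.11, edgeR with the replicate block, Benjamini-Hochberg adjusted p = 0.765).

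Among the HOMER genes, whose products tie group I metabotropic glutamate receptors to the scaffold, Homer2 was the one member called higher. It had 91.9, 122 and 120.5 CPM in the DMSO libraries against 108, 174 and 138 CPM under GSK-126. Each pair rose while the groups overlapped, and the log2 fold change was 0.31 (95% interval 0.14 to 0.49, edgeR with the replicate block, Benjamini-Hochberg adjusted p = 0.0208). Without pair 2, in which the rise was the steepest, Homer2 did not pass (edgeR with the replicate block, Benjamini-Hochberg adjusted p = 0.149). Homer3 moved down in pair 1 and up in the others, with 51.1 ± 19.4 and 59.99 ± 8.99 CPM (SD, n = 3 each) and 0.28 (95% interval 0.023 to 0.55, edgeR with the replicate block, Benjamini-Hochberg adjusted p = 0.187). Homer3 passed as higher once pair 1 was left out (edgeR with the replicate block, Benjamini-Hochberg adjusted p = 0.0112). Of its exon bases, 25.4% are shared with Ddx49 on the opposite strand, and reads there cannot be assigned to either gene if the counting ignored strand. Reads listed as ambiguous, 0.883% to 1.10% per library, are among the closing lines left out. Homer1 lay between 44.4 and 61.6 CPM and gave -0.17 (95% interval -0.38 to 0.037, edgeR with the replicate block, Benjamini-Hochberg adjusted p = 0.341); the counts are per gene and do not separate its short, activity-induced isoform from the long ones.

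Gphn, the gene of the inhibitory scaffold gephyrin, had 82.2, 124 and 88.1 CPM in the DMSO libraries against 63.1, 90.5 and 74.0 CPM under GSK-126. The pairs fell with groups that overlapped, and the change was -0.36 (95% interval -0.54 to -0.19, edgeR with the replicate block, Benjamini-Hochberg adjusted p = 0.00886). It did not pass without pair 1 or without pair 2 (edgeR with the replicate block, Benjamini-Hochberg adjusted p = 0.0743 and 0.0739).

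The adhesion genes fell in part. Lrrtm3, a leucine-rich repeat protein that binds presynaptic partners, had 46.8, 108 and 58.3 CPM in the DMSO libraries against 30.2, 62.0 and 41.0 CPM under GSK-126. In each pair the GSK-126 library was the lower one, while the groups overlapped, and the fit gave -0.65 (95% interval -0.86 to -0.45, edgeR with the replicate block, Benjamini-Hochberg adjusted p = 2.1e-04), the steepest change of the adhesion genes called. Lrrtm2, between 33.4 and 64.8 CPM, gave -0.079 (95% interval -0.29 to 0.13, edgeR with the replicate block, Benjamini-Hochberg adjusted p = 0.709). Lrrtm1 (between 6.06 and 8.62 CPM) and Lrrtm4 (between 2.31 and 6.9 CPM) were low, and their estimates of -0.03 (95% interval -0.50 to 0.44) and -0.33 (95% interval -1.04 to 0.38) leave room for changes of either sign. The antisense gene Gm4409 shares 25.1% of the exon bases of Lrrtm4.

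Nlgn1, for the neuroligin of excitatory synapses, had 36.8, 34.8 and 29.5 CPM in the DMSO libraries against 29.6, 22.2 and 24.4 CPM under GSK-126. Its change of -0.41 (95% interval -0.67 to -0.15) lay at the edge of the threshold (edgeR with the replicate block, Benjamini-Hochberg adjusted p = 0.0492), and the call was lost without pair 1 and without pair 2 (edgeR with the replicate block, Benjamini-Hochberg adjusted p = 0.106 and 0.281), by DESeq2 with the block (0.19) and with total counts (0.0751). The antisense gene A830092H15Rik shares 9.16% of the exon bases of Nlgn1. Nlgn2, for the neuroligin of inhibitory synapses, had 229.7, 235 and 238 CPM in the DMSO libraries against 218, 259 and 203 CPM under GSK-126 and gave -0.054 (95% interval -0.22 to 0.11, edgeR with the replicate block, Benjamini-Hochberg adjusted p = 0.751). Nlgn3, found at both kinds of synapse, was at 39.0 ± 9.29 and 30.7 ± 7.1 CPM (SD, n = 3 each) with -0.34 (95% interval -0.58 to -0.1, edgeR with the replicate block, Benjamini-Hochberg adjusted p = 0.0769), and 41.2% of its exon bases lie in Gm21986 on the same strand. Lrfn1, for the PSD-95 binding protein SALM2, had 53.2, 88.0 and 60.8 CPM in the DMSO libraries against 48.7, 83.9 and 49.4 CPM under GSK-126, a change of -0.16 (95% interval -0.36 to 0.033, edgeR with the replicate block, Benjamini-Hochberg adjusted p = 0.338). Lrfn2 had 18 to 42 counts per library, and its estimate (-0.49, 95% interval -1.29 to 0.32) leaves room for changes of either sign.

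Of the genes grouped as GTPase and actin regulators, in which Cnksr2 was placed, 3 fell. Cnksr2, a scaffold protein of the postsynaptic density, had 65.4, 127 and 70.1 CPM in the DMSO libraries against 37.5, 69.1 and 47.3 CPM under GSK-126. Every pair fell, replicate 2 was the highest of each group, and the change of -0.76 (95% interval -0.95 to -0.56, edgeR with the replicate block, Benjamini-Hochberg adjusted p = 2.5e-05), or 40.8%, was the lowest estimate of the 38 members. Iqsec2, for an exchange factor of ARF GTPases whose gene lies on the X chromosome, had 66.3, 94.3 and 69.7 CPM in the DMSO libraries against 40.2, 68.9 and 45.0 CPM under GSK-126. It changed by -0.60 (95% interval -0.79 to -0.40, edgeR with the replicate block, Benjamini-Hochberg adjusted p = 3.2e-04). For its relative Iqsec1 the libraries held 129, 164 and 138 CPM in the DMSO libraries against 112, 99.4 and 112 CPM under GSK-126. Each GSK-126 library was below each DMSO library, with the largest step in pair 2, and the change was -0.41 (95% interval -0.60 to -0.22, edgeR with the replicate block, Benjamini-Hochberg adjusted p = 0.00717), which did not pass without pair 2 (edgeR with the replicate block, Benjamini-Hochberg adjusted p = 0.0864). Iqsec3, between 21.3 and 35.2 CPM, gave -0.073 (95% interval -0.36 to 0.21, edgeR with the replicate block, Benjamini-Hochberg adjusted p = 0.818). Baiap2, for the actin regulator IRSp53, lay between 121 and 192 CPM with -0.13 (95% interval -0.30 to 0.039, edgeR with the replicate block, Benjamini-Hochberg adjusted p = 0.379), and Kalrn, for a regulator of dendritic spines, had 70 to 153 counts per library with -0.21 (95% interval -0.62 to 0.21, edgeR with the replicate block, Benjamini-Hochberg adjusted p = 0.604).

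Of the receptor auxiliary subunits, Neto2, for a partner of kainate receptors, had 94.4, 212 and 126 CPM in the DMSO libraries against 74.4, 144 and 105 CPM under GSK-126. The pairs all fell and the groups overlapped, with -0.39 (95% interval -0.57 to -0.22, edgeR with the replicate block, Benjamini-Hochberg adjusted p = 0.00385), a call not made without pair 2 (edgeR with the replicate block, Benjamini-Hochberg adjusted p = 0.0552). Its relative Neto1 had 9 to 39 counts per library, and its estimate was -0.079 (95% interval -1.10 to 0.94). Cnih2, for the AMPA receptor partner cornichon-2, lay between 34.3 and 47.8 CPM with -0.12 (95% interval -0.37 to 0.14, edgeR with the replicate block, Benjamini-Hochberg adjusted p = 0.64).

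Other values of the cultures also differed between libraries and between treatments. Replicate 2 was the highest library of both groups for 13 of the 15 members called lower, Nlgn1 and Iqsec1 being the exceptions, and for 11 of the other 23 tested. The share over all genes was not computed. On the first principal component of all genes tested (46.4% of variance), replicate 2 lay at 58.8 with DMSO and 32.8 with GSK-126. The other libraries lay between -36.7 and -12.3, so replicate 2 stood apart across all genes and not in the members alone. Astroglia markers were at 2534 and 2345 CPM in replicate 2 of DMSO and GSK-126 and between 4116 and 7778 CPM in the other libraries. Between the treatments, summed astroglia markers were at 1.05, 0.925 and 0.983 times their DMSO level in pairs 1, 2 and 3, whereas vascular and fibroblast markers were higher with GSK-126 in each pair (1.30, 1.08 and 1.10 times), as were microglia markers (1.23, 1.43 and 1.17 times). Neuronal markers summed to less in each pair. Summed granule neuron markers were at 0.808, 0.813 and 0.806 times and pan-neuronal markers at 0.768, 0.743 and 0.783 times their DMSO level in pairs 1, 2 and 3. Of the 10 pan-neuronal markers 7 were called lower and Tubb3 higher (not so without pair 2), with a median log2 fold change of -0.34, and 5 of the 8 granule neuron markers were called lower, with a median of -0.28 (edgeR with the replicate block). Of 7 markers of Purkinje cells and GABAergic interneurons 3 were called lower, with a median of -0.32, while Pvalb, Calb1 and Car8 had estimates above 0 (0.51, 0.45 and 0.30) that did not pass. The medians were -0.071 for astroglia, 0.17 for the oligodendrocyte lineage, 0.14 for microglia, 0.19 for vascular cells and fibroblasts and 0.038 for dividing cells, with 1, 1, 2, 3 and 0 genes called higher and 0 lower. In bulk RNA, fewer neurons and less RNA per neuron cannot be told apart, and the part of the marker shifts in the fall of the postsynaptic genes was not tested.

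From 66 further genes for postsynaptic scaffolds and enzymes, adhesion proteins and AMPA receptor partners, 63 were tested, of which 19 (30.2%) were called lower and 1 (1.59%) higher with the block, beside the 5.09% and 3.35% of all genes. Their median log2 fold change was -0.17. By list, 10 of 33 scaffold and enzyme genes, 7 of 21 adhesion genes and 2 of 9 AMPA receptor partners were called lower. The smallest p values were those of Lin7a, which encodes a PDZ adaptor, Slitrk4, for an adhesion protein, and Ptprd, for a receptor phosphatase that serves as a synaptic organizer. Slitrk4 had 26.2, 75.3 and 36.2 CPM in the DMSO libraries against 13.9, 26.7 and 21.0 CPM under GSK-126, a log2 fold change of -1.09 (95% interval -1.38 to -0.80, edgeR with the replicate block, Benjamini-Hochberg adjusted p = 3.3e-05). Lin7a changed by -0.71 and Ptprd by -0.47 (edgeR with the replicate block, Benjamini-Hochberg adjusted p = 2.7e-05 and 7.1e-04). The gene called higher was Synpo, for the actin-binding protein synaptopodin, with 48.5, 42.1 and 82.9 CPM in the DMSO libraries against 78.9, 56.3 and 104 CPM under GSK-126 (0.48, 95% interval 0.28 to 0.68, edgeR with the replicate block, Benjamini-Hochberg adjusted p = 0.00274), a call not made without pair 1 (adjusted p = 0.0521).

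**Figure D4:**
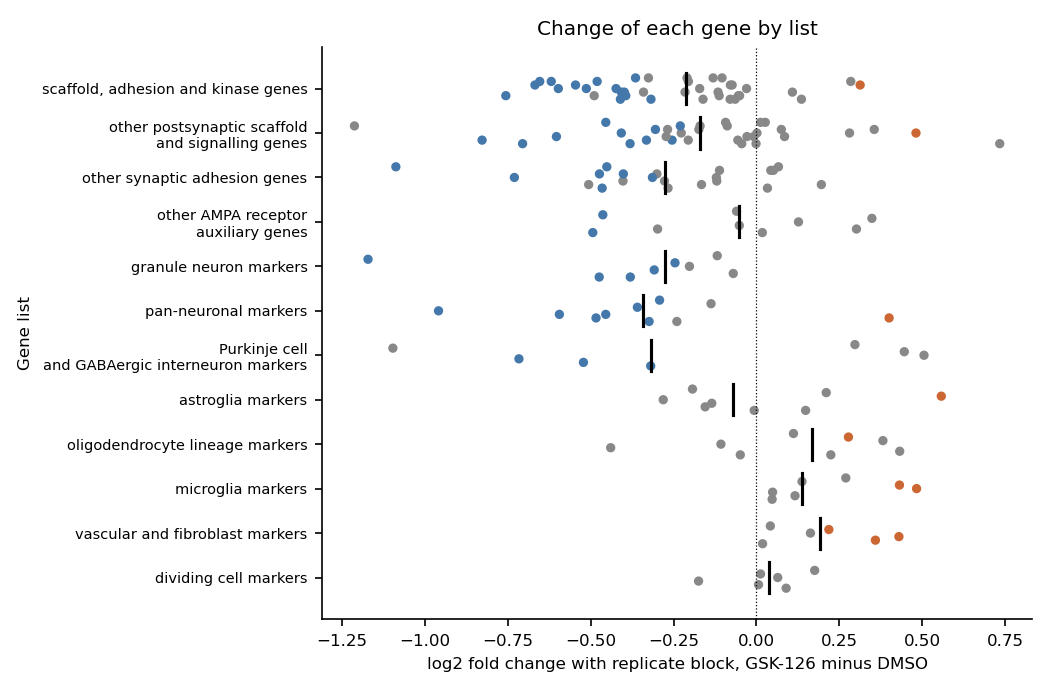
Log2 fold change of each tested gene with the replicate block (horizontal axis) for the 38 members and 11 further lists (vertical axis), with a black bar at each median. Blue points were called lower, orange points higher and grey points neither. The medians of the neuronal, other postsynaptic and astroglia lists lie to the left of 0 with that of the members. Those of the oligodendrocyte lineage, microglia, vascular and fibroblast and dividing cell lists lie to the right.

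The members differ in what the study's H3K27me3 lists say of their promoters. Those lists name Dlgap2, Lrfn2, Kalrn and Neto1 as gaining H3K27me3 at the promoter from DIV1 to DIV7 in culture, and these genes, with Nlgn1, also as losing it when GSK-126 was given from DIV1. Dlgap2, Lrfn2, Kalrn and Neto1 were among the 6 lowest members per kb, from 0.0490 to 1.08 CPM per kb with DMSO. For Kalrn this follows in part from its 24050 exon bases, as its DMSO mean of 12.3 CPM lay above the 8.45 CPM of Camk2a. The 3 of them that were tested were called in neither direction, with wide intervals that leave room for changes of either sign. The list of promoters that lose H3K27me3 from DIV1 to DIV7, of which a part was held, names 10 members, Kalrn again among them, and 5 of these were called lower: Shank1, Lrrtm3, Camk2b, Iqsec1 and Neto2. This count stands beside the 39.5% of all members tested and the 5.09% of all genes called lower, and nothing particular to the list was tested. The remaining 10 members called lower are not named in the part held.

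The promoters were read for the letters of 2 kinds of factor, chosen after the fold changes were seen. RefSeq windows on GRCm38.p6, 250 bases before to 50 after a start site, were held for 28 of the 38 members tested and 12 of the 15 called lower. The E-box CAGCTG, read by many neuronal bHLH factors, was present in a window of 3 of those 12 genes (25%) and of 10 of the 28 (35.7%), beside 18.4% of the tested genes with a window. Members had more windows per gene, and by window the shares were 19.0% of 21, 26.7% of 45 and 15.8% of 14885. The other E-box CAGATG was in 2 of the 12, beside 14.4%, and the ZIC-type letters CAGCAGG in 0 of the 12, beside 12.4%, each on either strand. The 3 genes called lower with CAGCTG were Dlg3, Dlgap1 and Iqsec2, each also called lower in each fit that left out a pair. Dlgap1 had its site 39 bases after a start and is not shown. The 3 sites upstream of a start are shown, Dlg3 at chrX:100777106-100777135 and Iqsec2 at chrX:152144018-152144047 and chrX:152178922-152178951, all on the plus strand with the E-box in capitals.
Dlg3: cagcctgccagcCAGCTGgacaaccattgg
Iqsec2, first start: ctggcatcCAGCTGaggtgccagtgctttg
Iqsec2, second start: tggcctgcagccCAGCTGgcctggcccctc
A match of letters is a description of the sequence and not a measured site.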

How the data were processed

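RNA-seq libraries of CGN cultures, 3 with DMSO and 3 with GSK-126, were compared, grouped by the treatment in the labels. The authors deposited raw counts per gene: poly-A RNA was sequenced as paired ends, trimmed with Trimmomatic 0.38, aligned with STAR 2.7.2b and counted over exons with HTSeq against Gencode GRCm38.p4, and the strand setting is not given in the sources used here. The 5 closing lines of each table, reads without a gene, held 58.7% to 60.7% of the reads and were left out. Reads on genes numbered 7407189 to 13092763 per library. Precision also depends on the variation between libraries, for which edgeR's common estimate was 24.0% without the replicate block and 9.74% with it.

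Genes were matched by symbol to GENCODE M21, which gave the identifiers and coordinates, and all 55341 had an entry. Counts were filtered by filterByExpr, scaled by TMM and tested with edgeR 4.0.16 (quasi-likelihood, R 4.3.3), with Benjamini-Hochberg adjustment over all genes tested and a threshold of 0.05. CPM are counts scaled to the TMM-adjusted library size, and per kb values divide these by exon bases. The main fit had treatment alone. Deviations from the group means correlated over genes at 0.56, 0.63 and 0.49 between libraries of the same number and at 0.0064 or less between others, so the numbers were taken to pair the cultures and a second fit that blocks on that number accompanies it. Deviations cancel within a group, so high values for the same number lower the others, and the contrast is not independent evidence. The labels give the numbers but do not state that they pair cultures. Alternatives were DESeq2 1.42.0, other scalings, no filter, and leaving out each library or pair. The steps were tested on counts simulated from the fit with the block. Such counts hold the pairing by construction, so they cannot check whether the numbers pair cultures.

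The members and gene lists were chosen with earlier results of these data known. All members are named, with every library's value for those called with the block and for the smallest block p of each of 13 role groups, and Nlgn2 besides, chosen after its values were seen. Of the other postsynaptic genes, the 3 smallest block p in each direction among calls are named. Promoter windows and the H3K27me3 list memberships were descriptions only, the latter from the study's supplement.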

Additional observations from a re-analysis of the deposited data

How the results depend on the processing

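With the replicate block, members called lower numbered 15 with TMM, 14 with RLE factors, 14 with no filter, 13 with total counts and 13 with DESeq2, and 1 was higher in each. Other postsynaptic genes called lower numbered 19, 19, 21, 15 and 15 in the same order, with 1 higher in each. All genes called lower and higher with the block were 851 and 561 with TMM, 837 and 582 with RLE factors, 874 and 737 with no filter, 707 and 714 with total counts and 600 and 351 with DESeq2. Without the block they were 2 and 19 with DESeq2 and 1 and 9 with no filter. Leaving out pairs 1, 2 and 3 in turn gave 12, 10 and 14 members called lower and 671, 496 and 719 genes lower and 417, 337 and 558 higher among all, and 10 of the 15 members were called in all 3 of these fits. Leaving out single libraries without the block gave 0 calls of members each time, and their median log2 fold change ran from -0.34 (without GSK-126 replicate 2) to -0.071 (without DMSO replicate 2). Of the members, none of those called with the block changed sign in any of these fits. Estimates that changed sign when a library or a pair was left out belonged to Dlg1 (-0.12 to 0.096 over single libraries and -0.13 to 0.061 over pairs), Dlg2 (-0.27 to 0.070 over single libraries and -0.12 to -0.089 over pairs), Shank2 (-0.23 to 0.15 over single libraries and -0.093 to -0.01 over pairs), Homer3 (-0.045 to 0.48 over single libraries and 0.067 to 0.51 over pairs), Nlgn2 (-0.14 to 0.026 over single libraries and -0.15 to 0.034 over pairs), Lrrtm1 (-0.16 to 0.10 over single libraries and -0.16 to 0.16 over pairs), Lrrtm2 (-0.27 to 0.16 over single libraries and -0.11 to -0.013 over pairs), Lrfn1 (-0.44 to 0.092 over single libraries and -0.21 to -0.096 over pairs), Camk2a (-0.033 to 0.33 over single libraries and -0.17 to 0.38 over pairs), Nrgn (-0.29 to 0.84 over single libraries and -0.43 to 0.32 over pairs), Iqsec3 (-0.28 to 0.10 over single libraries and -0.26 to 0.054 over pairs), Kalrn (-0.39 to 0.030 over single libraries and -0.34 to 0.070 over pairs), Baiap2 (-0.31 to 0.0026 over single libraries and -0.18 to -0.024 over pairs), Neto1 (-0.60 to 0.60 over single libraries and -0.64 to 0.44 over pairs, 0.089 without pair 1) and Cnih2 (-0.25 to -0.038 over single libraries and -0.23 to 0.057 over pairs). Lrrtm1 also changed sign with total counts (0.0145, and 0.0053 with the block). The cause was not tested.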
